A study of Rattus norvegicus with 18 samples.

Results

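Acta1, Ckm, Mb and Pvalb were examined as abundant skeletal muscle genes in the gastrocnemius of young and aged rats. They were chosen by Ensembl identifier and chromosome, and all 4 identifiers lay on the chromosome given for them, out of 32883 identifiers in the deposited table. Gastrocnemius RNA came from male Brown Norway rats in 3 groups of 6. Young AL rats were 6 months old and fed ad libitum (AL), old AL rats were 28 months old and fed ad libitum, and old CR rats were 28 months old under caloric restriction (CR), at 55% of AL intake since 2 months of age. There was no young CR group, so old CR and young AL rats differed in age and diet together. Each library was prepared from the muscle of a single rat, and for 3 of the old CR libraries (8826, 8827 and 8828) the column name fitted the group but not 1 rat.

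Acta1 encodes skeletal muscle alpha-actin, the thin filament protein of the sarcomere. Ckm encodes the muscle form of creatine kinase, which regenerates ATP from phosphocreatine during contraction. Mb encodes myoglobin, the oxygen-binding protein that is most abundant in slow and oxidative fibres. Pvalb encodes parvalbumin, a cytosolic calcium buffer which speeds relaxation and is typical of the fast glycolytic fibres of rodents. The gastrocnemius is a mixed muscle with a fast, pale outer part and a deeper part richer in oxidative fibres. In whole muscle, fewer fibres of a type and less RNA per fibre cannot be told apart, and this applies to every value below.

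Total counts per library ran from 17335401 to 27432767. Rat 8 (old AL) and library 8828 (old CR) stood apart from the rest on the first principal component of expression, at 90.3 and 59.5, where no other library was above 5.91. The 2 mitochondrial ribosomal RNA genes took 10.3%, 8.52% and 7.89% of the counts of rat 14 and libraries 8826 and 8827 (all old CR), and at most 3.10% in any other library. Library numbers fell into a separate block for each group, so any handling by block and the group cannot be told apart.

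Acta1 lies on chromosome 19 of Rnor_6.0 from 56674074 to 56677084, on the minus strand (ENSRNOG00000017786, 7 exon entries, 1436 exonic bases). It took 3.46% of all counts over the 18 libraries, the second highest mean share of any identifier, and ranked between 1 and 3 in every library. In young AL rats its share of counts was 2.82% in the lowest library, 3.28% at the median and 3.66% in the highest, with a mean of 3.28% ± 0.270 (SD, n = 6). Old AL rats spread more widely, from 1.53% through a median of 3.19% to 4.07% (3.10% ± 0.911, SD, n = 6), with rat 8 lowest and rat 11 highest. In old CR rats the share ran from 3.6% through 4.03% to 4.44% (4.0% ± 0.306, SD, n = 6), and 5 of these 6 libraries exceeded every young AL library. Old AL libraries lay on both sides of the young range, 2 above it and 2 below it.

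Ckm lies on chromosome 1 from 80321585 to 80331841, on the plus strand (ENSRNOG00000016837, 8 exon entries, 1438 exonic bases). Its mean share of counts was 1.37%, the sixth highest, and its rank lay between 3 and 14. Young AL libraries ran from 0.987% through 1.34% to 1.40% (1.29% ± 0.158, SD, n = 6). In old AL libraries the range was 0.670% to 1.6% with a median of 1.42% (1.22% ± 0.419, SD, n = 6). Rats 7 and 8, at 0.670% and 0.705%, lay below every other library of the study, while the other 4 old AL rats had at least 1.39%. Old CR libraries ran from 1.41% through 1.64% to 1.79% (1.62% ± 0.131, SD, n = 6), and all 6 were above all young AL libraries in share of counts, as was so for 2.65% of the genes tested in either direction. After scaling for composition the same 2 groups overlapped, with 3 of 6 old CR libraries above the young range. The 3 libraries rich in mitochondrial ribosomal RNA were the highest of the old CR group in Ckm (1.67% to 1.79%, against 1.41% to 1.61% in the other 3).

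Mb lies on chromosome 7 from 118101634 to 118108864, on the minus strand (ENSRNOG00000004583, 3 exon entries, 946 exonic bases). It held 0.560% of counts on average, with a rank between 12 and 46. In young AL rats its share of counts ran from 0.615% through 0.801% to 0.857% (0.770% ± 0.0880, SD, n = 6). Old AL rats had 0.312% in the lowest library, 0.524% at the median and 0.692% in the highest (0.495% ± 0.138, SD, n = 6), and 5 of these 6 lay below all young libraries. The exception in share was rat 7, and after scaling for composition all 6 old AL libraries were below all 6 young ones. Old CR rats spread widely, from 0.204% through 0.330% to 0.786% (0.414% ± 0.247, SD, n = 6). Rat 14 and libraries 8826 and 8828 had 0.204%, 0.222% and 0.208% of counts on Mb, less than any other library, whereas rats 13 and 15 had 0.786% and 0.624%, within the young range. Library 8827 lay between these, at 0.439%. All 3 of the low libraries stand apart from the rest in another measure, rat 14 and library 8826 in mitochondrial ribosomal RNA and library 8828 on the first principal component. The share of Mb was 0.204% to 0.439% in the 3 libraries rich in mitochondrial ribosomal RNA and 0.208% to 0.786% in the other 3.

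Pvalb lies on the same chromosome from 119429019 to 119441487, also on the minus strand (ENSRNOG00000006471, 4 exon entries, 537 exonic bases). It took 0.386% of counts on average and ranked between 16 and 85. Young AL libraries were close together, from 0.278% through 0.298% to 0.326% (0.301% ± 0.0167, SD, n = 6). Old AL libraries ran from 0.126% through 0.330% to 0.502% (0.317% ± 0.127, SD, n = 6), with rat 7 lowest and rat 9 highest, so that they lay on both sides of the young range. In old CR rats the share was 0.336% in the lowest library, 0.561% at the median and 0.697% in the highest (0.540% ± 0.142, SD, n = 6). All 6 old CR libraries exceeded all 6 young AL libraries in share of counts (2.65% of the genes tested did not overlap in this comparison), and 5 of 6 did so after scaling, rat 13 being the exception.

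**Figure D1:**
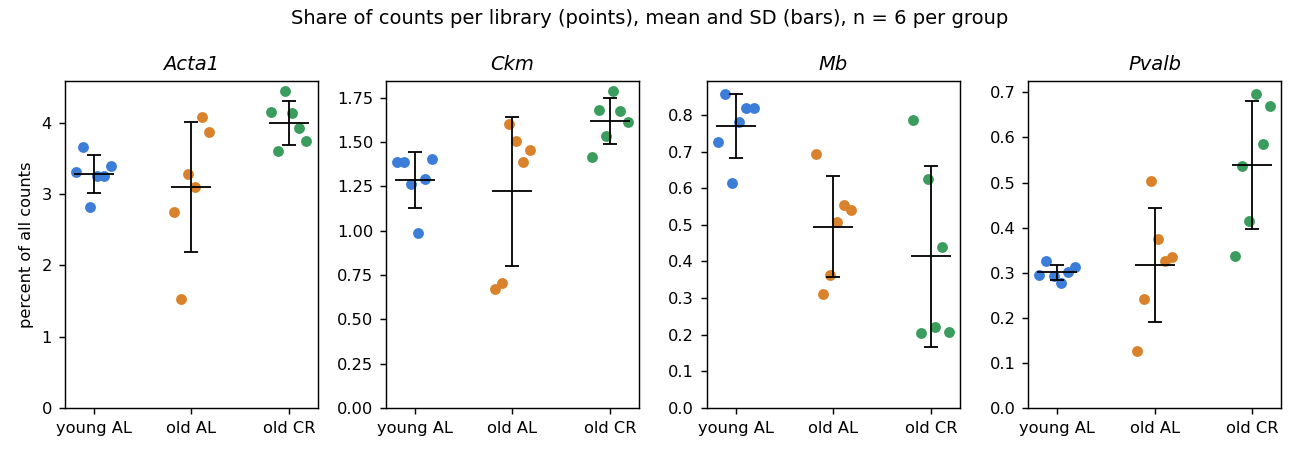
Percent of all counts of a library on Acta1, Ckm, Mb and Pvalb (y axis, from 0, a scale for each gene), with a point for each library, a bar for the mean and whiskers for the SD (n = 6 per group). Old CR libraries sit high for Acta1, Ckm and Pvalb, and spread widely for Mb. Rats 7 and 8 are the 2 low points of Ckm in old AL rats.

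The 4 genes together took 5.64% ± 0.440 of counts in young AL rats, 5.13% ± 1.37 in old AL rats and 6.57% ± 0.374 in old CR rats (SD, n = 6 each). Single libraries ran from 2.79% in rat 8 to 7.01% in rat 15. In rat 8 the 100 most abundant identifiers held 28.3% of counts, against at least 37.1% in any other library. Reads were counted without regard to strand, and 1 identifier, with a mean share of 6.12e-05%, overlaps Ckm, while none overlaps the other 3 genes. Reads that align equally well to several places were not requested in the counting command, so Acta1, which has near-identical stretches in other actin genes, may be undercounted.

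Levels of different genes were compared per length, as TPM (a read count divided by gene length and scaled to the same total in every library) computed from the counts and the deposited exonic lengths. In young AL rats the order was Acta1 (39889 ± 2681 TPM), Ckm (15710 ± 2420), Mb (14178 ± 978) and Pvalb (9816 ± 731; SD, n = 6 throughout). Ckm and Mb overlapped in this order, with Ckm above Mb in 5 of 6 libraries, and Mb was above Pvalb in all 6. In old AL rats the mean TPM was 35915 ± 10084 for Acta1, 14123 ± 4659 for Ckm, 9834 ± 3859 for Pvalb and 8745 ± 2478 for Mb, with Mb and Pvalb within each other's spread. In old CR rats the order was Acta1 (47891 ± 3267 TPM), Ckm (19359 ± 1659), Pvalb (17358 ± 4816) and Mb (7476 ± 4396), and Ckm and Pvalb were not separated by their spread, with Ckm above Pvalb in 4 of 6 libraries. Acta1 was the highest of the 4 genes in all 18 libraries.

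In TPM the places of Mb and Pvalb were exchanged between young and most aged libraries. This order depends on the gene lengths used, 946 and 537 bases, whereas the shift of their ratio between groups does not. In share of counts the old AL mean remained higher for Mb (0.495%) than for Pvalb (0.317%). Mb was above Pvalb in TPM in all 6 young AL libraries, in 1 of 6 old AL libraries (rat 7) and in 1 of 6 old CR libraries (rat 13). The ratio of Mb to Pvalb, a value within a library that does not depend on scaling between libraries, was 1.19 to 1.6 in young AL rats, with a mean log2 ratio of 0.53 ± 0.15 (SD, n = 6). In old AL rats it ran from 0.410 to 3.11 (mean log2 ratio -0.11 ± 0.96, SD, n = 6), and the mean was -0.46 without rat 7 and 0.13 without rat 9. The ratio was close to 1 in rats 11 and 12, at 0.967 and 0.915. In old CR rats it ran from 0.176 to 1.33 (mean log2 ratio -1.37 ± 1.24, SD, n = 6). In each aged group 5 of 6 libraries were below the young range, and the 2 aged groups overlapped, with 3 old CR libraries below all old AL libraries.

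The ratio of Acta1 to Mb ran from 2.61 to 3.03 in young AL rats, 2.61 to 5.96 in old AL rats and 3.48 to 12.3 in old CR rats. All 6 old CR libraries were above all young AL libraries, as was true in either direction of the ratio of Acta1 to 8.96% of the genes tested. The mean log2 ratios were 1.49 ± 0.083, 2.03 ± 0.43 and 2.88 ± 0.79 (SD, n = 6 each). In contrast, the log2 ratio of Acta1 to Ckm was similar in mean in the 3 groups, at 1.36 ± 0.20, 1.37 ± 0.39 and 1.31 ± 0.19 (SD, n = 6 each), and the groups overlapped. Leaving out 1 library moved the old AL mean to between 1.23 (without rat 7) and 1.43 (without rat 9), so the order of these means was not fixed.

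**Figure D2:**
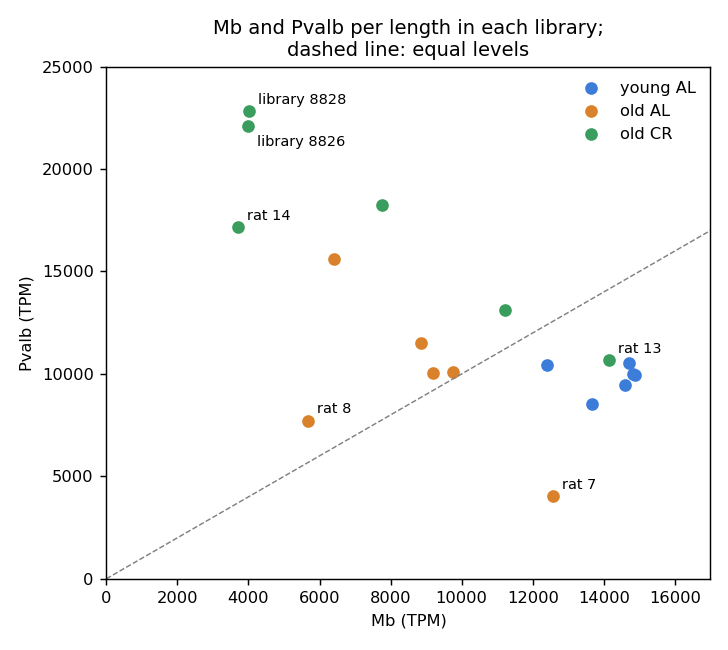
Level per length of Mb (x axis) and Pvalb (y axis) in each library, in TPM, with a point for each of the 18 libraries coloured by group and a dashed line where both are equal. The 6 young AL points form a tight group below the line, and rat 14 and libraries 8826 and 8828 lie at low Mb and high Pvalb.

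Mb and Pvalb lie on the same chromosome, 7, at a distance of 1320 kilobases in Rnor_6.0, the build of the counts. Between them lie 28 identifiers, of which 13 were tested, none with a mean share above 0.0103% of counts. None of the 13 was called in any of the 3 comparisons, where 3.39%, 1.98% and 1.38% of all genes tested were, so a count of 0 among 13 lies near the background. Their median log2 fold changes were 0.03 (old AL against young AL), 0.01 (old CR against young AL) and -0.17 (old CR against old AL). Mb and Pvalb stood in a different order in TPM in young and most aged libraries. Both also had an extreme fold change of the 4 in old CR against young AL rats, the lowest (Mb) and the highest (Pvalb). For these reasons the 250 bases before the RefSeq start of both genes are shown. They are from build GRCr8, not from the build of the counts, and are read 5′ to 3′ on the minus strand. Capitals mark 2 motifs, searched on both strands, the E-box CANNTG, to which myogenic factors bind, and the TATA box TATAAA.
Mb, chr7:110647743-110647992: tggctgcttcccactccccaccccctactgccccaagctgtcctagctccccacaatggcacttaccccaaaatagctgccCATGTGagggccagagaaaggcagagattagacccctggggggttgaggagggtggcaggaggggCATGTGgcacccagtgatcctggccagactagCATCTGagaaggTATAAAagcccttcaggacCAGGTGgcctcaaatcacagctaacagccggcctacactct
Pvalb, chr7:111666290-111666539: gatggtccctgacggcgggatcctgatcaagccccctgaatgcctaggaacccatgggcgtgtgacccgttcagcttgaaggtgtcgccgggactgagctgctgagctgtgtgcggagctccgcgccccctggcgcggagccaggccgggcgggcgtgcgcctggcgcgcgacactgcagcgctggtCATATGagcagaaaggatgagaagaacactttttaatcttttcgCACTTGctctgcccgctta

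The window of Mb held 4 E-boxes, starting 169, 104, 72 and 41 bases before the start, and a TATA box 60 bases before it. That of Pvalb held 2 E-boxes, 63 and 19 bases before the start, and no TATAAA. The windows of the other 2 genes held 1 E-box (Acta1) and 3 (Ckm), with TATAAA and a CArG box, the site of serum response factor, in Acta1 and neither in Ckm. No matches of different motifs overlapped. Of 33469 such windows in RefSeq, 65.5% held an E-box, 12.9% TATAAA and 1.5% a CArG box, so the E-box in all 4 windows is a common feature, and a match is a description and not a binding site.

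Ageing under ad libitum feeding was tested by comparing old AL with young AL rats. None of the 4 genes was called by edgeR (quasi-likelihood F test, Benjamini-Hochberg adjusted p not above 0.05, and a change of 1.5-fold or more), where 3.39% of the 14646 genes tested were called. At an unadjusted p under 0.05, 1 of the 4 genes remained, against 22.3% of all genes tested. This gene was Mb, with 4679 ± 1458 scaled CPM (counts brought to a common library size with TMM factors, which allow for differences in composition) in old AL and 7982 ± 506 in young AL rats (SD, n = 6 each). Its log2 fold change was -0.77 ± 0.32 (SE, unadjusted p = 0.0268, adjusted p = 0.165 in edgeR), and over 32 alternative settings the adjusted p lay between 0.0109 and 0.277. The spread behind this SE was estimated from all 3 groups, old CR rats included. With only the 12 libraries compared the SE of Mb was 0.24 (unadjusted p = 0.00686, adjusted p = 0.115 in edgeR). The groups did not overlap for Mb in scaled CPM, which was so for 2.4% of genes tested (1.11% lower in old AL rats).

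The other 3 genes had log2 fold changes near 0 in old AL against young AL rats, with standard errors that leave room for changes in both directions. The log2 fold change of Acta1 was -0.19 ± 0.25 (SE, adjusted p = 0.692 in edgeR) and that of Ckm -0.19 ± 0.27 (SE, adjusted p = 0.732). Leaving out rat 8 brought both to -0.02. Over all libraries left out in turn the value for Acta1 reached -0.29 (without rat 11), and that for Ckm ran from -0.02 to -0.30 (without rat 9), with -0.05 without rat 7 and -0.28 without rat 10. The log2 fold change of Pvalb was -0.04 ± 0.29 (SE, adjusted p = 0.953), and its sign changed to 0.13 without rat 7, to 0.09 without rat 8 and to 0.01 with upper-quartile scaling. In share of counts no member was without overlap between the groups (3.33% of genes were), nor was the ratio of Acta1 to any of the other 3 (1.68%). With DESeq2's Wald test none of the 4 genes was called in the fit of all libraries (5.81% of genes tested were), and Mb was called in the fit of the 12 libraries compared (4.95%), where edgeR called none (1.83%).

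Old CR rats against young AL rats gave differences in opposite directions for Mb and Pvalb, neither of them past the threshold. Again 0 of 4 genes were called by edgeR, with 1.98% of genes called, no member was without overlap in scaled CPM (3.25% of genes were), and 2 of 4 had an unadjusted p under 0.05, against 19.3% of all genes. Pvalb had 5633 ± 1626 scaled CPM in old CR and 3142 ± 294 in young AL rats (SD, n = 6 each), a log2 fold change of 0.84 ± 0.29 (SE, unadjusted p = 0.00966, adjusted p = 0.128 in edgeR). Mb had 4259 ± 2417 scaled CPM in old CR rats, and its log2 fold change against young AL rats was -0.91 ± 0.32 (SE, unadjusted p = 0.0110, adjusted p = 0.135 in edgeR), with 5 of 6 old CR libraries below the young range. Acta1 and Ckm were higher in mean in old CR rats, by log2 fold changes of 0.28 ± 0.25 (SE, adjusted p = 0.569) and 0.32 ± 0.27 (SE, adjusted p = 0.545).

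Whether Pvalb was called differed between the tools and between the fits of 18 and of 12 libraries. These fits also differed in the genes tested, the scaling and the estimate of the spread. The fit of 18 libraries estimated the spread of a gene from all 3 groups, that of 12 from the 2 compared. In edgeR the SE of Pvalb was 0.29 with 18 libraries and 0.19 with 12, at log2 fold changes of 0.84 and 0.86. With only the 12 libraries compared, edgeR called Pvalb at a log2 fold change of 0.86 ± 0.19 (SE, adjusted p = 0.0235), where 3.13% of genes were called. DESeq2 also called Pvalb, at an adjusted p of 0.0481 with all libraries (4.03% of genes called) and of 0.000219 with the 12 libraries compared (5.69%). In that last fit Mb was called too (adjusted p = 0.0296), and Acta1 had an adjusted p of 0.0194 at a log2 fold change of 0.29, below the fold change minimum. Over all 32 alternatives the adjusted p of Pvalb ran from 0.000219 to 0.522, that of Mb from 0.0296 to 0.479 and that of Acta1 from 0.0194 to 0.807. The 3 libraries rich in mitochondrial ribosomal RNA were among those high in Pvalb (0.536% to 0.697% of counts, against 0.336% to 0.670% in the other 3). Without them the log2 fold change of Pvalb was 0.52 ± 0.36 (SE), that of Mb -0.60 ± 0.37 (SE) and that of Ckm 0.12 ± 0.35 (SE), an alternative chosen after seeing the data. The part of mitochondrial ribosomal RNA content in these differences was not tested.

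The effect of CR at 28 months of age was compared directly between old CR and old AL rats. No member was called by edgeR (1.38% of genes tested were), and 1 of 4 had an unadjusted p under 0.05, against 15.3% of all genes. That gene was Pvalb, with 5633 ± 1626 scaled CPM in old CR and 3058 ± 1474 in old AL rats (SD, n = 6 each) and a log2 fold change of 0.88 ± 0.29 (SE, unadjusted p = 0.00721, adjusted p = 0.133 in edgeR). In scaled CPM 4 of 6 old CR libraries lay above every old AL library, and none of the 4 genes was without overlap between these groups in scaled CPM (2.06% of genes were), in share of counts (2.7%) or, for the other 3, in the ratio of Acta1 to the gene (7.63%). DESeq2 called Pvalb with all libraries (adjusted p = 0.0481, 2.74% of genes called) and none of the 4 with the 12 libraries compared (2.87% of genes). With those 12 libraries edgeR called none either (0.917% of genes), and the adjusted p of Pvalb over alternatives ran from 0.0481 to 0.899. Without the 3 libraries rich in mitochondrial ribosomal RNA its log2 fold change was 0.53 ± 0.36 (SE).

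Acta1 and Ckm were higher in mean in old CR than in old AL rats by similar amounts, with log2 fold changes of 0.48 ± 0.25 (SE, adjusted p = 0.381) and 0.51 ± 0.27 (SE, adjusted p = 0.392 in edgeR). Without rat 8, which was low in both, the values were 0.31 and 0.36, and without the 3 libraries rich in mitochondrial ribosomal RNA they were 0.39 ± 0.33 and 0.28 ± 0.35 (SE). Mb differed by -0.14 on the log2 scale (standard error 0.32, adjusted p = 0.883), with an interval of 1.96 standard errors from -0.76 to 0.49, so a change of either sign was not excluded by the spread. The sign changed to 0.02 without library 8828. The 2 comparisons with young AL rats share those rats, and both comparisons of old CR rats share the old CR libraries, so the values above are not independent of each other.

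**Figure D3:**
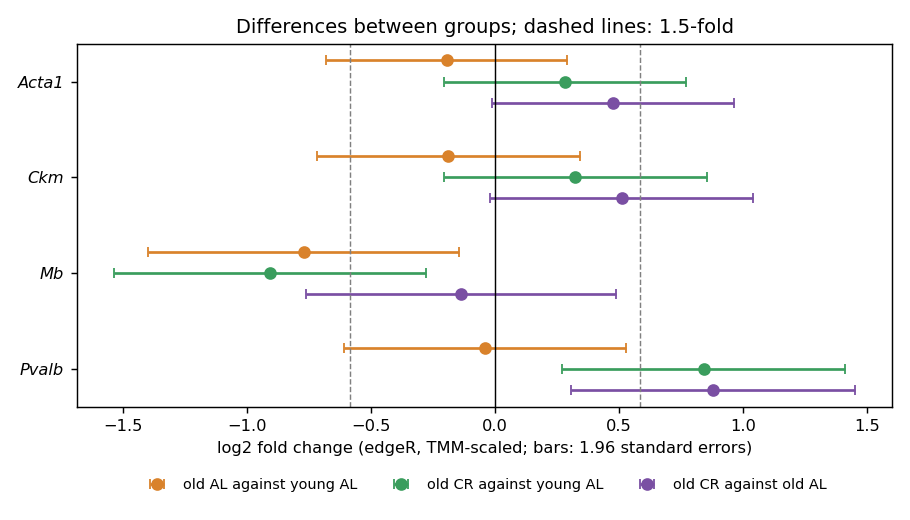
Log2 fold change of each gene in the 3 comparisons (x axis, edgeR with TMM scaling), with bars of 1.96 standard errors and dashed lines at 1.5-fold. The points of Mb lie at -0.77 and -0.91 against young AL rats and those of Pvalb at 0.84 and 0.88 for old CR rats, and no gene passed the adjusted p threshold.

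Among the 100 identifiers with the highest mean share, which include the 4 genes, 3 were called lower in old AL than in young AL rats and none higher. In old CR against young AL rats 1 was called lower, and in old CR against old AL rats 4 were called higher, beside 3.39%, 1.98% and 1.38% of all genes tested in either direction. Their median log2 fold changes were -0.25, -0.07 and 0.18 in these comparisons, beside 0.01, 0.00453 and -0.02 over all genes tested. Rat 8, where these 100 held only 28.3% of counts, is among the old AL libraries, and the medians were not recomputed without it. The median standard error was 0.25 in each comparison for these 100 and 0.19 over all genes tested. Counting from the highest fold change among the 100, Pvalb was at place 3 in old CR against young AL rats and at place 5 in old CR against old AL rats. Counting from the lowest, Mb was at place 3 in old CR and at place 9 in old AL rats, both against young AL rats.

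The spread within groups differed between genes and groups. In young AL rats the coefficient of variation of the share of counts was 5.56% for Pvalb, the lowest of the 100 most abundant identifiers on this scale. Taken from log2 scaled CPM it was 9.66% for Pvalb, above 6.36% for Mb and 6.66% for Acta1. In share of counts it was 8.25% for Acta1, 11.4% for Mb and 12.3% for Ckm, with a median of 16.6% over the 100. Without rat 3 it was 5.06% for Acta1 and 6.17% for Mb, and without rat 4 it was 4.75% for Ckm. In old AL rats the median over the 100 was 29.9%, and the 4 genes lay around it, with 27.9% for Mb, 29.4% for Acta1, 34.3% for Ckm and 39.9% for Pvalb. Taken from log2 scaled CPM the values were 40.2%, 52.6%, 57.8% and 62.3% in the same order. Leaving out rat 8 brought Acta1 to 16.1%, and leaving out rat 7 brought Pvalb to 26.9% and Ckm to 26.9%.

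In old CR rats the 4 genes parted in spread. The coefficient of variation was 7.66% for Acta1 and 8.09% for Ckm, below the median of 15.3% over the 100, but 26.3% for Pvalb and 59.8% for Mb. Taken from log2 scaled CPM it was 11.6% for Acta1 and 16% for Ckm, and the SD of log2 scaled CPM was 0.17 and 0.23 beside a median of 0.28 over the 100. Mb had the fifth highest value of the 100 in this group, where it had been at place 80 in young AL rats. Leaving out each old CR library in turn left the value for Mb between 55.1% and 67.7%. The highest and lowest old CR libraries differed 3.85-fold in their share of counts on Mb, against 1.39-fold in young AL rats. No test of spread was made, and these are descriptions of 6 libraries each.

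**Figure D4:**
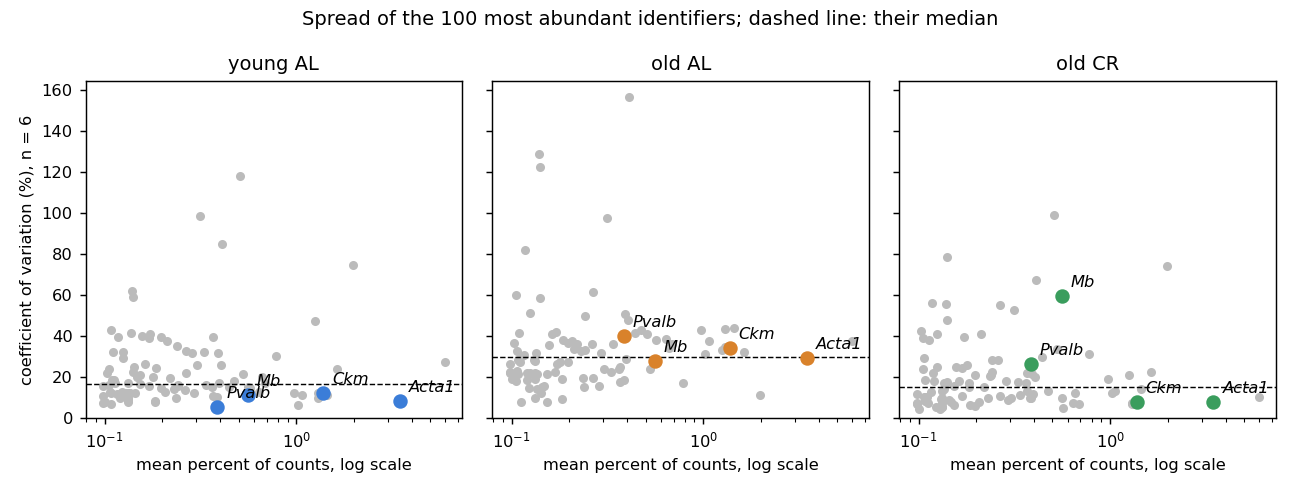
Coefficient of variation of the share of counts within each group (y axis, percent, n = 6) against the mean percent of counts over all libraries (x axis, log scale) for the 100 most abundant identifiers, with the 4 genes coloured and the median dashed. In young AL rats all 4 lie below the median of 16.6%, and in old CR rats Mb at 59.8% and Pvalb at 26.3% lie above the median of 15.3% while Acta1 and Ckm lie below it.

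Correlations within groups were computed for the 6 pairs of genes, 18 in all, and that of Ckm and Pvalb is given first because it was the highest in each group, a choice made after the values were seen. The Pearson correlation of their log2 scaled CPM was 0.947 in young AL rats (exact permutation test, two-sided, p = 0.00556 and 0.10 after Benjamini-Hochberg adjustment over the 18 pairs and groups), 0.925 in old AL rats (exact permutation p = 0.0236, adjusted p = 0.144) and 0.802 in old CR rats (exact permutation p = 0.0556, adjusted p = 0.200; n = 6 each). Spearman's rho was 0.829 (exact permutation p = 0.0583, adjusted p = 0.350), 0.943 (p = 0.0167, adjusted p = 0.300) and 0.771 (p = 0.103, adjusted p = 0.463). Without the 2 libraries farthest from the median of Ckm the correlations were 0.571, 0.909 and 0.966. None passed the adjustment over the 18 tests on this scale. On shares of counts without TMM scaling the value in old AL rats was 0.890 and passed (exact permutation p = 0.00139, adjusted p = 0.025).

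Acta1 and Ckm had a correlation of 0.784 in young AL and 0.865 in old AL rats (exact permutation p = 0.0319 and adjusted p = 0.144 for both, n = 6 each). Without the 2 libraries farthest from the median of Acta1 the values were -0.222 (without rats 4 and 5) and -0.959 (without rats 7 and 8). Leaving these out narrows the range of Acta1 by construction, so the change of sign does not show what the correlations rested on. In old CR rats the value was 0.577 (exact permutation p = 0.176, adjusted p = 0.353), and it turned to -0.383 when shares of counts without TMM scaling were used. On that scale the value was 0.291 in young AL rats (exact permutation p = 0.406) and 0.750 in old AL rats (exact permutation p = 0.0639). The corresponding Spearman's rho was 0.829 (exact permutation p = 0.0583, adjusted p = 0.350), 0.486 (p = 0.356, adjusted p = 0.629) and 0.714 (p = 0.136, adjusted p = 0.490). For Mb and Pvalb in old CR rats r was -0.724 (exact permutation p = 0.118, adjusted p = 0.266, n = 6) and rho -0.543 (p = 0.297, adjusted p = 0.629), with r = -0.617 without rat 13 and library 8828. The same pair had r = 0.189 in young AL and 0.074 in old AL rats (exact permutation p = 0.739 and 0.917, n = 6 each). Without the 2 farthest libraries these were 0.830 (without rats 3 and 6) and -0.982 (without rats 8 and 9).

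The genes most like each member were sought among 1376 genes with a mean share of at least 0.01% of counts, by the Pearson correlation of log2 scaled CPM over all 18 libraries, given as a description. The files do not pair identifiers with symbols, so these are named by identifier. For Ckm it was ENSRNOG00000049056 on chromosome 3 from 11653529 to 11659127 (r = 0.983), and 44 candidates had r over 0.9. For Mb it was ENSRNOG00000004245 on chromosome 13 from 85601499 to 85622314 (r = 0.949). Acta1 was most like ENSRNOG00000016618 on chromosome 5 from 172887217 to 172889383 (r = 0.948). Pvalb was most like ENSRNOG00000019745 on chromosome 1 from 220120533 to 220136470 (r = 0.933), itself the twelfth most abundant identifier with 0.976% of counts. Rat 8 and library 8828, which stand apart from the rest, are among the 18 libraries behind these values.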

How the data were processed

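Gastrocnemius RNA of 18 rats was sequenced after removal of ribosomal RNA. According to the methods and the processing notes of the submitters, reads were trimmed with cutadapt 1.2.1, aligned to Rnor_6.0 with STAR 2.3.0e and counted on annotation release 96 with featureCounts 1.6.4. The deposited values are raw counts of fragments per gene without normalization, and the authors also give each gene's exonic length (other columns are positions). The counting command sets no strand option.

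Groups were taken from the labels. In edgeR 4.0.16 (R 4.3.3), filterByExpr left 14646 genes, TMM factors scaled the libraries, and a single quasi-likelihood fit held the 18 libraries, with Benjamini-Hochberg adjustment over all genes tested. SE was taken as the size of a log2 fold change over the root of its F statistic. Shares are percent of all counts of a library. TPM was computed from counts and lengths. In simulated data for the real genes, 90.7% of genes changed 4-fold were called between old AL and young AL over 14541 genes, and of genes changed 2-fold 57.7% (old CR against young AL) and 55.2% (old CR against old AL). The changed genes were drawn at random. In the real data the 4 members had standard errors of 0.25 to 0.32, above the median of 0.19 over all genes, so these rates need not hold for them.

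The named genes were the 4 members and the gene most like each. The members, lists and tests were chosen with earlier results of these data known. A planned list of other contractile and glycolytic genes and markers of other tissues was not analysed here, since the data at hand did not pair symbols with the identifiers. Alternatives were DESeq2 1.42.0, fits of the 12 libraries compared, other scalings, filters and thresholds, and leaving out libraries.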

Additional observations from a re-analysis of the deposited data

Results flagged for a closer look

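In 45 groups of 6 values (in each group the share of counts and scaled CPM of each gene, the summed share of the 4 genes and the 6 log2 ratios between them) the distance of an extreme library from its neighbour was set against the whole range, and 2 exceeded Dixon's critical value for 6 samples, where chance gives about 2.25. Both concerned rat 4, a young AL rat. Its share of counts on Ckm was 0.987% with the nearest young library at 1.26% (a gap of 0.669 of the range), and its log2 ratio of Ckm to Pvalb was 0.41 with the nearest at 0.67 (a gap of 0.647).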

How the results depend on the processing

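Each comparison of each gene was recomputed under 32 alternatives, and Acta1 and Ckm kept the sign of their fold changes in all of them, as did Mb and Pvalb against young AL rats in old CR rats and Mb in old AL rats. With DESeq2 and only the 12 libraries compared, 1 gene was called in old AL against young AL rats (Mb, log2 fold change -0.76) and 2 in old CR against young AL rats (Mb, -0.90, and Pvalb, 0.85). With DESeq2 and all libraries 1 gene was called in both comparisons of old CR rats (Pvalb, 0.85 against young AL and 0.88 against old AL), and with edgeR and the 12 libraries 1 against young AL rats (Pvalb, 0.86). The fold change of Pvalb in old AL against young AL rats was 0.012 with upper-quartile scaling, 0.074 with total counts and 0.089 without rat 8 and library 8828, and leaving out 1 library gave -0.25 to 0.13, the sign turning without rat 7 or rat 8. That of Mb in old CR against old AL rats was -0.39 to 0.019 when 1 library was left out and 0.15 without the 3 libraries rich in mitochondrial ribosomal RNA. The cause was not tested. Over all genes edgeR called 497, 290 and 202 genes in the 3 comparisons (old AL and old CR against young AL, old CR against old AL), DESeq2 985, 706 and 434 with all libraries and 849, 952 and 429 with 12, and edgeR with 12 libraries 258, 441 and 130. Leaving out 1 library gave 288 (without rat 9) to 678 (without library 8828) calls in the first, with 329, 326, 299 and 300 without rats 1, 3, 5 and 6. It gave 185 (library 8826) to 578 (rat 8) in the second, with 188 and 192 without rats 3 and 5, and 69 (library 8826) to 385 (rat 8) in the third, with 128, 129, 103 and 361 without rats 7 and 10 and libraries 8827 and 8828. Without a filter on low counts, 129 were called in the last comparison, and 330 in the first with at least 10 counts in every library. Without the 3 libraries rich in mitochondrial ribosomal RNA 387, 46 and 4 were called. Only 3 old CR libraries then remained, so the smaller group and the content of those left out cannot be told apart in these counts. Total counts without TMM scaling moved the median log2 fold change of all genes to 0.18 and -0.19 in the comparisons of old AL with young AL and of old CR with old AL rats, with calls of 364 higher and 102 lower in the first and 68 higher and 199 lower in the last, beside 275 and 222, and 122 and 80 with TMM. Upper-quartile scaling gave 330 and 173 in the first and 165 and 149 in old CR against young AL rats, beside 112 and 178.

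As a percentage of the counts on all identifiers outside the 100 most abundant, a total which does not hold the 4 genes themselves, the counts were, in young AL, old AL and old CR rats, 5.93%, 5.38% and 7.64% for Acta1, 2.34%, 2.13% and 3.11% for Ckm, 1.39%, 0.846% and 0.778% for Mb and 0.545%, 0.553% and 1.04% for Pvalb. Among counts off the mitochondrial chromosome, old CR rats had 4.32% for Acta1 and 1.75% for Ckm. Taken from log2 scaled CPM, the coefficient of variation was 52.6% (old AL) and 11.6% (old CR) for Acta1, 57.8% and 16% for Ckm, 40.2% for Mb in old AL, and 9.66% (young AL) and 62.3% (old AL) for Pvalb. Leaving out 1 library gave 16.1% to 33.1% for Acta1 in old AL, 4.75% to 13.7% for Ckm and 6.17% to 12.8% for Mb in young AL rats. On shares of counts the correlation turned to -0.383 (Acta1 and Ckm) and -0.476 (Acta1 and Pvalb) in old CR and to -0.0195 (Ckm and Mb) and -0.473 (Mb and Pvalb) in old AL rats, and for Ckm and Pvalb in old AL rats it was 0.890 (exact permutation p = 0.00139, adjusted p = 0.025).

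No paired analysis was possible because the groups share no replicate numbers. The lowest count of any of the 4 genes was 21885 (Pvalb in rat 7), so counting error is small beside the spread between libraries of a group. With 1 library per rat, the spread between rats and that of library preparation cannot be told apart.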
